A study of Mus musculus with 786 samples.

Results

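The lymphoid branch of the bulk RNA-seq set was followed over 3 of its 18 sorted populations, chosen by gate name from the deposited table: common lymphoid progenitors with high Sca-1 (CLP Sca1 high), common lymphoid progenitors (CLP) and multipotent precursors 4 (MPP4). Each is 1 library of 1000 sorted bone marrow cells from C57BL6 mice of 6 to 8 weeks, and the whole series holds 786 samples. The CLP Sca1 high gate was CD135+, IL7R+, ckit+ and Sca1Hi, and the CLP gate differed from it in its last marker, Sca1+. MPP4 cells were gated as CD48+, CD150-, CD135+ and CD34+. These markers name no exclusion of mature lineage cells for any of the 3 gates, and nothing in the labels says how many mice were pooled. With 1 library per population no difference could be tested, and every comparison below describes 3 libraries.

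MPP4 is the multipotent precursor that already carries the cytokine receptor Flt3 (CD135) and is known for feeding the lymphoid branch. Common lymphoid progenitors add the receptor for interleukin 7, whose signal through Jak kinases and Stat5 keeps lymphoid precursors alive, and give rise to B, T, natural killer and innate lymphoid cells and to some plasmacytoid dendritic cells. Within these progenitors the surface protein Ly6d marks cells biased towards the B lineage, where Ebf1 and later Pax5 set up the B programme and the recombinase Rag1 and Rag2 cuts antigen receptor genes.

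Levels are FPKM, the fragments of a gene divided by its transcript length and by the size of the library. A gene was called higher or lower when FPKM + 1 differed at least 4-fold and the higher library reached FPKM 10. The added 1 makes these differences, given as log2 values, understate the change of weakly expressed genes. CLP Sca1 high held 3625 genes at FPKM 1, CLP 4365 and MPP4 4107, within the range of 1642 to 6080 over the 18 libraries. From the steps between the lowest values, 1 fragment of a transcript of 1000 bases was worth about 0.0515 FPKM in CLP Sca1 high, 0.0380 in CLP and 0.0211 in MPP4. A separate comparison of these steps gene by gene put MPP4 at about 2.37 times the depth of CLP Sca1 high and 1.77 times that of CLP, and whether depth entered a result was not tested.

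Single libraries of this set lie far apart. Over all 153 pairs of the 18 libraries, the share of genes called ran from 32.0% to 87.1% with a median of 64.3%. CLP Sca1 high against CLP called 65% of 2217 genes, CLP Sca1 high against MPP4 69.1% of 2200, and CLP against MPP4 60% of 2380. Ordered from the most alike pair, these were the 83rd, the 98th and the 48th, so the CLP gates lay about as far apart as a typical pair of populations, and CLP and MPP4 somewhat closer. The library with the fewest genes called against it was the common myeloid progenitor (CMP) for all 3, at 63.9% for CLP Sca1 high, 53.5% for CLP and 52.2% for MPP4.

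**Figure D1:**
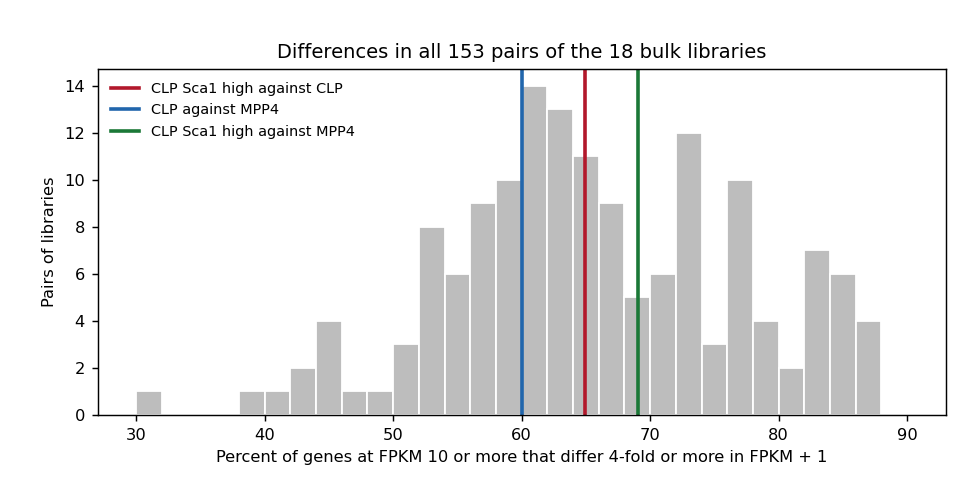
Histogram of the share of genes called, in percent of the genes at FPKM 10 or more in either library, for each of the 153 pairs of bulk libraries; vertical lines mark CLP Sca1 high against CLP (65%), CLP Sca1 high against MPP4 (69.1%) and CLP against MPP4 (60%). All 3 lines stand in the middle of the distribution, whose median is 64.3%.

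The genes of the gates were read first, as a check of the labels. Flt3, the receptor that all 3 gates select, had 4.51 FPKM in CLP Sca1 high, 376 FPKM in CLP and 231 FPKM in MPP4. CLP and MPP4 held the highest and the next highest level of the 18 libraries, whereas CLP Sca1 high ranked 10 and lay below the CMP library at 104 FPKM. Kit, the stem cell factor receptor selected in both CLP gates, had 2.73 FPKM in CLP Sca1 high, 141 FPKM in CLP and 21.7 FPKM in MPP4, and only 1 of the 18 libraries was lower than CLP Sca1 high. Its RNA thus went against the gate label in that library, as Flt3 did. Il7r, the interleukin 7 receptor chain, had 4.50 FPKM in CLP Sca1 high, 4.96 FPKM in CLP and 0.194 FPKM in MPP4. The CLP gates were the 2 highest libraries for it, and none of the other 15 exceeded 0.340 FPKM. Ly6a, which encodes Sca-1, had 5.81 FPKM in CLP Sca1 high, 0.333 FPKM in CLP and 0.0688 FPKM in MPP4. The library sorted for high Sca-1 was the highest of 18 for this gene, although its level stayed below the FPKM 10 needed for a call. Ly6a was under FPKM 1 in CLP too, whose gate is Sca1+, and reached at most 0.626 FPKM (MPP1) in the other 15 libraries. The rank of so low a gene is thus a weak check of the label. Cd34, part of the MPP4 gate, had 6.23 FPKM in CLP Sca1 high, 265 FPKM in CLP and 1226 FPKM in MPP4. Cd48, part of the same gate, had 1.31 FPKM in CLP Sca1 high, 0.646 FPKM in CLP and 1.01 FPKM in MPP4, which ranked 7 of 18. In bulk RNA, fewer cells of a type and less RNA per cell cannot be told apart, for these genes and for all that follow.

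The windows of 250 bases before the start of Flt3, Ebf1 and Siglech are shown because these genes carry the contrast between the gates: Flt3 separates CLP Sca1 high from the other 2 libraries, Ebf1 singles out CLP and Siglech singles out CLP Sca1 high. The sequences are RefSeq promoters of GRCm38.p6, a later build than the one used for the FPKM values, and are written on the gene's strand. Flt3 lies at chr5:147400490-147400739 (minus strand), Ebf1 at chr11:44617850-44618099 (plus strand, the first of 2 listed starts) and Siglech at chr7:55767934-55768183 (plus strand). Capitals mark matches on either strand to the E-box CACCTG, the ETS element GAGGAA and the RUNX element TGTGGT.
Flt3: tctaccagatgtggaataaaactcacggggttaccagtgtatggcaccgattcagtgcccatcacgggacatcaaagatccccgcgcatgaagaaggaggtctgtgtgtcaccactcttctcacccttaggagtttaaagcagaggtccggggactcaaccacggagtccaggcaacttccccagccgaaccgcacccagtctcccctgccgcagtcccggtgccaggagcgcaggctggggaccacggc
Ebf1: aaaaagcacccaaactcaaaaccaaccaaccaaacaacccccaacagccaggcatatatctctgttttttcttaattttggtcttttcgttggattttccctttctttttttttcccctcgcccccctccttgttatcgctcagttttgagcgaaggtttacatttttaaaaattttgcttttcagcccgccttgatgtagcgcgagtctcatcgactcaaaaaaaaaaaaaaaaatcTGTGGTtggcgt
Siglech: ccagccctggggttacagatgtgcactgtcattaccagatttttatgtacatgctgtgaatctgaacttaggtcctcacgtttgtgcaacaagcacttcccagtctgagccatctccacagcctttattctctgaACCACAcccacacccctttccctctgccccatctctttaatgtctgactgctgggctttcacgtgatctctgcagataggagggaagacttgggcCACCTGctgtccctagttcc
Siglech held 1 E-box, 20 bases before the start, and 1 RUNX element, 115 bases before it. Ebf1 held 1 RUNX element, 12 bases before the start. The Flt3 window held none of the 3 motifs, and no matches overlapped. Among 32536 promoter windows of the same length, 17.3% held the E-box, 23.4% the ETS element and 14.0% the RUNX element, so such matches are common and describe the letters only.

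CLP was set against MPP4 to describe which genes differ between these libraries. Of the 2380 genes at FPKM 10, 732 were called higher (30.8%) and 696 lower (29.2%) in CLP. Ebf1, Rag1, Dntt and Ly6d, genes of early lymphoid and B cells, were among those called higher. Meis1 and Myb, regulators of multipotent cells, and the granule gene Mpo were among those called lower.

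Ebf1, the factor that starts the B programme, had the largest difference among the lineage transcription factors, with 2.55 FPKM in CLP Sca1 high, 1726 FPKM in CLP and 1.76 FPKM in MPP4. CLP was the highest of the 18 libraries by a wide margin, and CLP Sca1 high stood with MPP4. The log2 difference of CLP over MPP4 was 9.29. Rag1, the recombinase subunit, had 0.0419 FPKM in CLP Sca1 high, 45.5 FPKM in CLP and 0.150 FPKM in MPP4, a log2 difference of CLP over MPP4 of 5.34. Dntt, the polymerase that adds bases at recombination joints, had 0.639 FPKM in CLP Sca1 high, 27.4 FPKM in CLP and 2.95 FPKM in MPP4. Its level in MPP4 was the next highest of 18 after CLP. Rag2, the partner of Rag1, had 0.0144 FPKM in CLP Sca1 high, 6.64 FPKM in CLP and 0.0182 FPKM in MPP4 and was too low for a call. Rag1 and Rag2 were ordered alike, with CLP alone above FPKM 1 among the 3 libraries.

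Ly6d separated both CLP gates from MPP4. It had 549 FPKM in CLP Sca1 high, 283 FPKM in CLP and 0.321 FPKM in MPP4, and no other library exceeded 0.161 FPKM. Of the genes of later B-lineage steps, Pax5, Vpreb2 and Vpreb3, the last 2 being surrogate light chain and pre-B cell genes, were listed at 0 in all 3 libraries, whereas the adaptor Blnk had 4.64 FPKM in CLP Sca1 high, 6.01 FPKM in CLP and 0.0415 FPKM in MPP4. The B-cell receptor signalling gene Cd79a had 2.45 FPKM in CLP Sca1 high and 0.0328 FPKM in CLP and was listed at 0 in MPP4. Foxo1, which acts with Ebf1 in early B cells, had 1.89 FPKM in CLP Sca1 high, 9.04 FPKM in CLP and 0.279 FPKM in MPP4. Of the 22 B-commitment genes in the table, 5 reached FPKM 10 in CLP or MPP4. Ebf1 and Ly6d were called higher in CLP, and Cd79b, Cd24a and Myb lower, against 30.8% higher and 29.2% lower over all genes. The call of Cd79b ended under both other scalings of the libraries that were tried, and that of Cd24a when each library was rescaled to the same total.

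Among 24 lymphoid-priming genes, 14 reached FPKM 10, 5 were called higher in CLP and 0 lower, and their median log2 difference was 0.93 against 0.07 over all genes at FPKM 1. The share called higher is close to the 30.8% over all genes. The 5 were Dntt, Rag1, Ikzf1, Lck and Mn1. Ikzf1 (Ikaros, needed for lymphoid fate) had 19.7 FPKM in CLP Sca1 high, 104 FPKM in CLP and 18.3 FPKM in MPP4. Lck, a kinase of T-cell receptor signalling, had 7.97 FPKM in CLP Sca1 high, 44.9 FPKM in CLP and 6.31 FPKM in MPP4. For both genes CLP Sca1 high lay close to MPP4. Runx2 and Tcf7, transcription factors of plasmacytoid and T-lineage cells, were also called higher in CLP, with log2 differences of 5.39 and 5.00. Runx2 had 18.0 FPKM in CLP Sca1 high, 140 FPKM in CLP and 2.37 FPKM in MPP4. Tcf7, a Notch-dependent factor of early T cells, had 16.4 FPKM in CLP Sca1 high, 32.2 FPKM in CLP and 0.0389 FPKM in MPP4, and thus marked both CLP gates.

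Signalling and survival genes downstream of interleukin 7 were split. Of 14 genes 7 reached FPKM 10, and Stat5b, Mcl1 and Pim2 were called higher in CLP while Bcl2 and Pim1 were lower. Among all genes 30.8% were called higher and 29.2% lower. Mcl1, a survival factor of lymphoid progenitors, had 3555 FPKM in CLP Sca1 high, 2250 FPKM in CLP and 104 FPKM in MPP4, the 2 highest levels of the 18 libraries. Stat5b, which carries the receptor's signal, had 44.8 FPKM in CLP Sca1 high, 37.8 FPKM in CLP and 1.24 FPKM in MPP4. Bcl2, another survival gene, was ordered the other way, with 11.3 FPKM in CLP Sca1 high, 26.5 FPKM in CLP and 127 FPKM in MPP4. The calls of Bcl2 and Pim1 both ended when libraries were rescaled to the same total. The related Bcl2l1 (Bcl-xL) had 20.8 FPKM in CLP Sca1 high, 956 FPKM in CLP and 1.02 FPKM in MPP4.

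Rel and Traf6, an NF-kB subunit and an adaptor that activates NF-kB, belonged to the genes with the largest differences. Rel had 0.602 FPKM in CLP Sca1 high, 606 FPKM in CLP and 0.712 FPKM in MPP4, and Traf6 had 1.21 FPKM in CLP Sca1 high, 711 FPKM in CLP and 1.42 FPKM in MPP4. For both, CLP was the highest of 18 and the other 2 gates were low. The other largest differences included Ust, a sulfotransferase, with 0.491 FPKM in CLP Sca1 high, 1498 FPKM in CLP and 1.54 FPKM in MPP4.

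Genes lower in CLP included regulators of multipotent cells. Of 26 stem and multipotent genes, 9 reached FPKM 10, 0 were called higher and 4 lower: Meis1, Ifitm1, Ifitm3 and Cd34. Over all genes 30.8% were called higher and 29.2% lower. Meis1, a partner of Hox proteins in stem cells, had 0.322 FPKM in CLP Sca1 high, 20.3 FPKM in CLP and 748 FPKM in MPP4. Myb, which early progenitors of all lineages need, had 5.98 FPKM in CLP Sca1 high, 156 FPKM in CLP and 1796 FPKM in MPP4. Both genes were called lower in CLP than in MPP4 and lower in CLP Sca1 high than in CLP. So was Cd34, whose call between CLP and MPP4 ended when libraries were rescaled to the same total. Ifitm3, a membrane protein with an intrinsic role in stem cells, was listed at 0 in CLP Sca1 high, with 1.70 FPKM in CLP and 59.0 FPKM in MPP4. Satb1, a chromatin organiser of lymphoid-primed cells, had 78.7 FPKM in CLP Sca1 high, 394 FPKM in CLP and 1342 FPKM in MPP4, the last being the highest of 18. Between CLP and MPP4 this difference was -1.77 on the log2 scale and stayed short of a call.

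The granulocyte-monocyte list had 5 members at FPKM 10, of which 0 were called higher and 4 lower in CLP. The shares over all genes were 30.8% higher and 29.2% lower. Mpo (myeloperoxidase) had 0.568 FPKM in CLP Sca1 high, 13.8 FPKM in CLP and 106 FPKM in MPP4. Cebpa, the factor that directs myeloid fate, had 0.379 FPKM in CLP Sca1 high, 0.112 FPKM in CLP and 14.6 FPKM in MPP4. Prtn3 and Calr were the other 2. Few S-phase genes were called between CLP and MPP4: of 11 at FPKM 10, 0 were called higher and 1 lower. Of 8 G2/M genes 2 were called each way, near the shares over all genes. Among the G2/M genes at FPKM 1 the difference was positive in 14 of 18, with a median log2 difference of 0.72, and among the S-phase genes it was positive in 11 and negative in 8, with a median of 0.12.

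**Figure D2:**
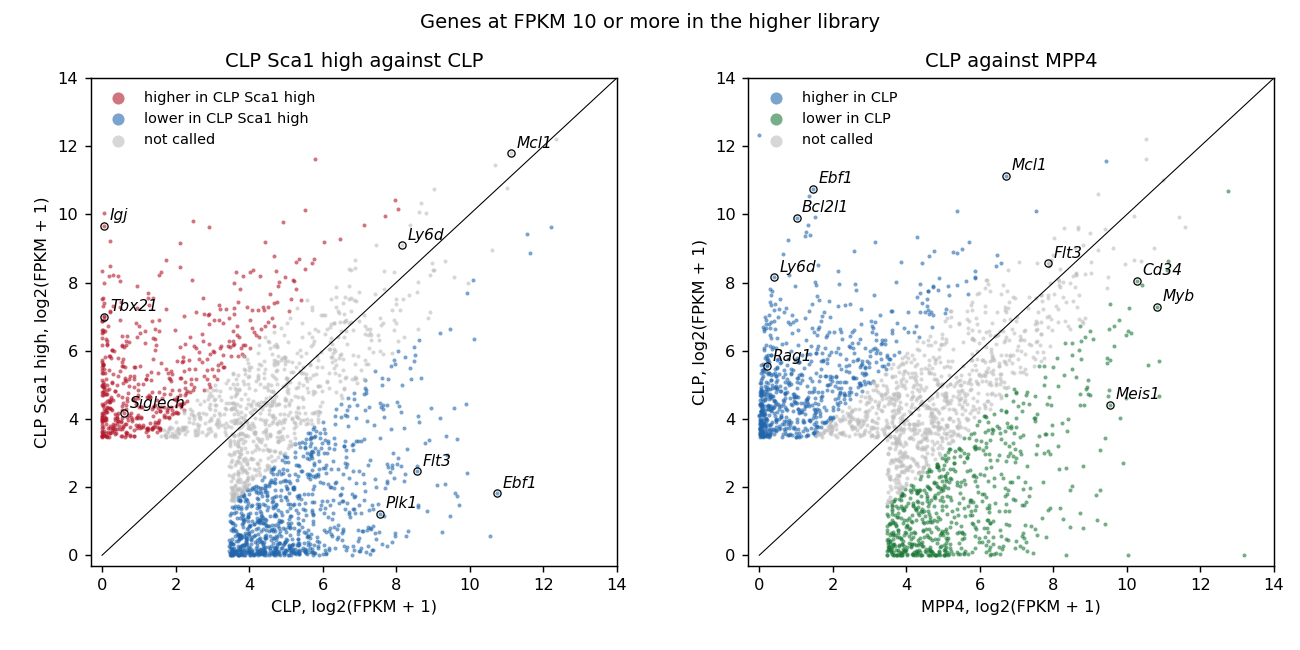
Scatter plots of log2(FPKM + 1) for genes at FPKM 10 or more in the higher library, CLP Sca1 high against CLP on the left and CLP against MPP4 on the right; coloured points passed the 4-fold call, grey points did not, and the diagonal marks equal levels. Many called genes lie on or near the axes, with Igj and Tbx21 at 815 and 127 FPKM in CLP Sca1 high near the left axis and Ebf1 at 1726 FPKM in CLP far from the diagonal in both plots.

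CLP Sca1 high was then set against CLP, which asks how the library of the Sca-1-high gate differs. It had 533 genes called higher (24%) and 907 lower (40.9%) of 2217. Some markers of plasmacytoid dendritic, plasma, T and natural killer cells were higher in CLP Sca1 high. Others of the same lists, such as Runx2, Sdc1 and Lck, were lower, and several were listed at 0. Most cell-cycle genes, Flt3, Kit, Ebf1 and Rag1 were lower. Over all genes at FPKM 1 the median log2 difference was -0.70, and scaling by the median ratio moved it to -0.38. Genes higher in CLP Sca1 high made up 37.0% of the calls against CLP as deposited and 46.9% with the median ratio (674 higher and 763 lower). Against MPP4, with 584 genes higher (26.5%) and 936 lower (42.5%), the median was -0.68, and it became -0.27 with equal totals and -0.31 with the median ratio. Genes higher in CLP Sca1 high made up 38.4% of the calls against MPP4 as deposited, 51.3% with equal totals and 49.0% with the median ratio, so the excess of lower calls against MPP4 depends on the scaling. Both scalings moved the median of CLP over MPP4 too, to 0.40 and 0.13.

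Of 17 dendritic cell genes, 8 reached FPKM 10 in CLP Sca1 high or CLP. Siglech, Tcf4, Spib, Ly6c2 and Id2 were called higher in CLP Sca1 high, and Runx2 and Flt3 lower. The shares over all genes were 24% higher and 40.9% lower. Siglech, a surface lectin of plasmacytoid dendritic cells, had 17.0 FPKM in CLP Sca1 high and 0.527 FPKM in CLP and was listed at 0 in MPP4 and in each of the other 15 libraries. Tcf4 (E2-2), the E-protein on which plasmacytoid dendritic cells depend, had 153 FPKM in CLP Sca1 high, 11.0 FPKM in CLP and 1.11 FPKM in MPP4. It is among the 16 genes called higher in CLP than in MPP4 and higher in CLP Sca1 high than in CLP. The other 15 libraries reached at most 8.86 FPKM. Spib, an ETS factor of plasmacytoid and B cells, had 39.4 FPKM in CLP Sca1 high and 0.0528 FPKM in CLP and was listed at 0 in MPP4. Ccr9, a homing receptor of plasmacytoid cells and thymus-seeding progenitors, had 41.0 FPKM in CLP Sca1 high and 0.412 FPKM in CLP and was listed at 0 in MPP4. Other dendritic genes stayed low: Cd300c, Zbtb46 and Cox6a2 were listed at 0 in all 3 libraries, and Bst2 had 1.59 FPKM in CLP Sca1 high, 1.38 FPKM in CLP and 0.194 FPKM in MPP4. Irf8, which dendritic cells need, had 75.6 FPKM in CLP Sca1 high, 32.2 FPKM in CLP and 28.0 FPKM in MPP4, below the 4-fold call. The call of Siglech ended at a minimum of FPKM 20 and at a pseudocount of 5.

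Of 16 mature B and plasma cell genes, 5 reached FPKM 10. Of these, 4 were called higher in CLP Sca1 high, against 24% over all genes: Igj, Xbp1, Cd74 and H2-Aa. Igj (now Jchain), the joining chain of secreted antibodies, had 815 FPKM in CLP Sca1 high and 0.0370 FPKM in CLP and was listed at 0 in MPP4. It had one of the 2 largest positive differences between CLP Sca1 high and CLP, and the other 15 libraries did not exceed 0.314 FPKM. Xbp1, the secretory factor of plasma cells, had 286 FPKM in CLP Sca1 high, 30.3 FPKM in CLP and 12.6 FPKM in MPP4. Pou2af1, the B-cell coactivator of octamer factors, had 74.5 FPKM in CLP Sca1 high and 1.23 FPKM in CLP and was listed at 0 in MPP4. Genes that define mature B and plasma cells were low at the same time. Prdm1 had 0.991 FPKM in CLP Sca1 high and was listed at 0 in the other 2, Ms4a1 (CD20) had 2.80 FPKM in CLP Sca1 high and was listed at 0 in the other 2, and Cr2 and Fcer2a were listed at 0 in all 3. Sdc1 (CD138) did not separate the CLP gates, with 53.4 FPKM in CLP Sca1 high, 92.5 FPKM in CLP and 1.83 FPKM in MPP4.

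Of 11 MHC class II genes, 3 reached FPKM 10 in either CLP gate. Cd74 and H2-Aa were called higher in CLP Sca1 high and H2-Ob lower, against 24% higher and 40.9% lower over all genes. Cd74, the invariant chain of MHC class II, had 57.0 FPKM in CLP Sca1 high, 13.4 FPKM in CLP and 0.598 FPKM in MPP4. Between the CLP gates Cd74 was just past the 4-fold limit. Its call ended at a pseudocount of 5. H2-Aa, a class II chain, had 13.1 FPKM in CLP Sca1 high, 0.267 FPKM in CLP and 0.0717 FPKM in MPP4. H2-Ob, a chain of the peptide-loading modulator H2-O, had 3.99 FPKM in CLP Sca1 high, 38.9 FPKM in CLP and 1.18 FPKM in MPP4. Rfx5 and Ctsb are outside this list and were chosen after their values were seen. Rfx5, which drives class II transcription, had 56.1 FPKM in CLP Sca1 high, 12.0 FPKM in CLP and 0.246 FPKM in MPP4. Ctsb, a lysosomal protease, had 984 FPKM in CLP Sca1 high, 206 FPKM in CLP and 19.6 FPKM in MPP4. Cd74, Rfx5 and Ctsb were all higher in CLP than in MPP4 and higher in CLP Sca1 high than in CLP.

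T, natural killer and innate lymphoid markers were at or near 0 in CLP and MPP4. Of 14 genes, 7 reached FPKM 1 in CLP Sca1 high, 0 in CLP and 0 in MPP4. The 4 at FPKM 10, Tbx21, Il2rb, Id2 and Cd4, were all called higher in CLP Sca1 high. With 0 members at FPKM 1 in CLP or MPP4, a member could reach FPKM 10 only through CLP Sca1 high. Their calls were therefore fixed in advance. Tbx21 (T-bet), the factor of type 1 T and natural killer cells, had 127 FPKM in CLP Sca1 high and 0.0463 FPKM in CLP and was listed at 0 in MPP4, with at most 0.0407 FPKM in the other 15 libraries. Il2rb, a receptor chain for interleukins 2 and 15, had 29.5 FPKM in CLP Sca1 high and 0.0279 FPKM in CLP and was listed at 0 in MPP4. Id2, the inhibitor of E-proteins that innate lymphoid cells need, had 28.5 FPKM in CLP Sca1 high and 0.143 FPKM in CLP and was listed at 0 in MPP4. None of these genes was above FPKM 1 in CLP or MPP4. Gata3, a factor of T and innate lymphoid cells, had 31.0 FPKM in CLP Sca1 high and 0.0241 FPKM in CLP and was listed at 0 in MPP4. The T-lineage surface genes were uneven. Cd7 had 31.1 FPKM in CLP Sca1 high, 0.102 FPKM in CLP and 0.0540 FPKM in MPP4. Cd4 had 19.9 FPKM in CLP Sca1 high, 0.0234 FPKM in CLP and 0.576 FPKM in MPP4, and was higher still in the mature megakaryocyte library, at 29.4 FPKM. Cd3g had 10.4 FPKM in CLP Sca1 high and was listed at 0 in the other 2. The receptor subunit Cd3d and the granzymes Gzma and Gzmb were listed at 0 in all 3, and Cd3e had 0.233 FPKM in CLP Sca1 high. The calls of Cd4 and Cd3g ended at a minimum of FPKM 20.

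Chemokine receptors and adhesion molecules were divided between the CLP gates. Ccr9 and Cxcr3 were called higher in CLP Sca1 high, and Itga4, an integrin chain, was called lower. Cxcr3, a receptor that guides T and natural killer cells, had 16.9 FPKM in CLP Sca1 high and was listed at 0 in every other library. Itga4 had 5.85 FPKM in CLP Sca1 high, 58.3 FPKM in CLP and 54.2 FPKM in MPP4. Immediate-early genes, which tissue handling is known to induce, had their 3 highest summed levels of the 18 libraries in these gates, with 1022 FPKM in CLP Sca1 high, 591 FPKM in CLP and 277 FPKM in MPP4. Of 9 at FPKM 10, Btg2, Dusp1, Klf2 and Klf6 were called higher in CLP Sca1 high than in CLP and 0 lower. Among all genes 24% were called higher and 40.9% lower. The part of handling in these differences was not tested.

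**Figure D3:**
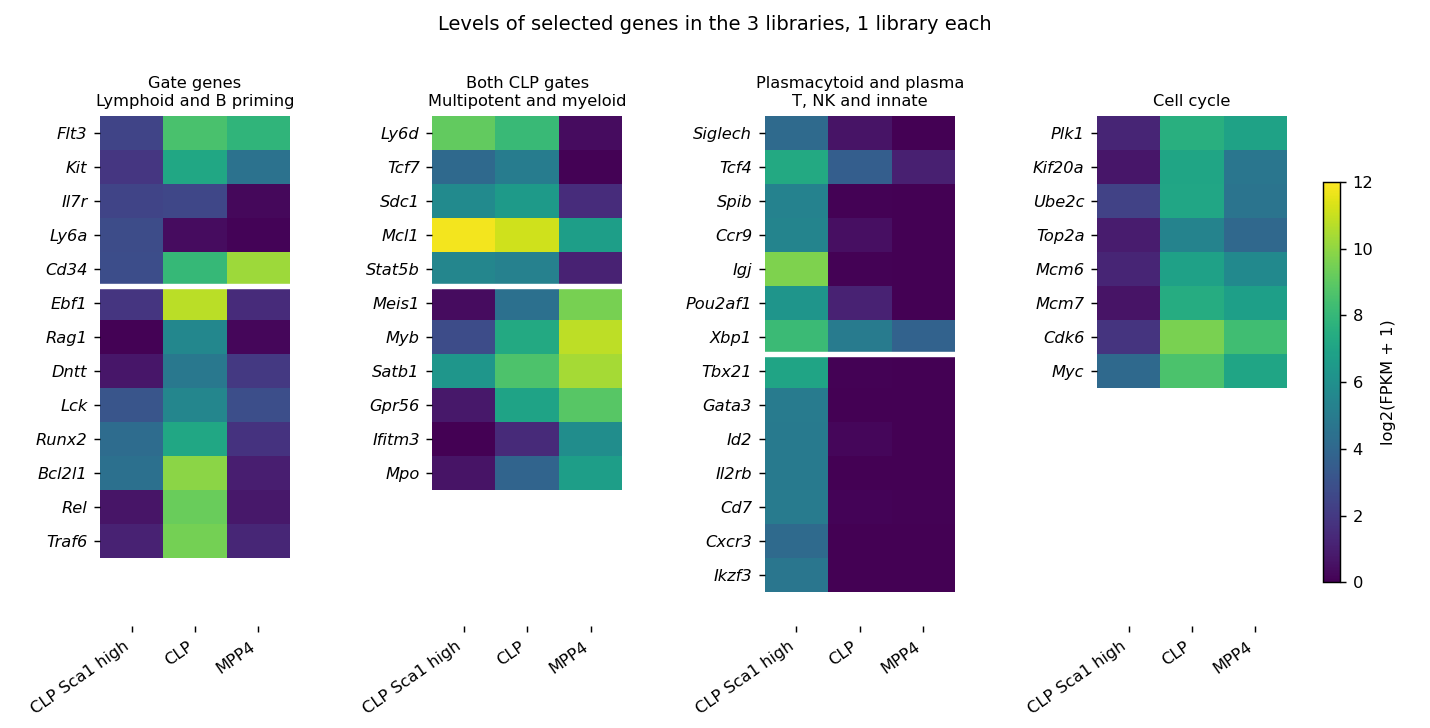
Heat maps of log2(FPKM + 1) for genes named in the text, with CLP Sca1 high, CLP and MPP4 from left to right in each block (1 library each); a white line parts the upper from the lower gene group named above a block. Ebf1, Rag1, Bcl2l1, Rel and Traf6 are high in CLP, and Meis1 and Myb in MPP4. The plasmacytoid, plasma, T and natural killer groups show only genes called higher in CLP Sca1 high than in CLP. Runx2, Lck and Sdc1, which were lower there than in CLP, stand in other groups. Cell-cycle genes are low in CLP Sca1 high.

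Most of the lymphoid-priming genes that reached FPKM 10 were lower in CLP Sca1 high than in CLP. Of 15 lymphoid-priming genes at FPKM 10 in either CLP gate, 10 were called lower and 4 higher, with a median log2 difference of -2.25. Over all genes 40.9% were called lower and 24% higher, with a median of -0.70. Ebf1 differed by -8.92, Flt3 by -6.10, Rag1 by -5.48 and Dntt by -4.11 on the log2 scale. The calls of Ikzf1 and Lck ended under the median-ratio scaling, and that of Satb1 under both other scalings. The B-commitment list did not move the same way: of 7 genes at FPKM 10, Pou2af1, Cd79b and Spib were called higher and Ebf1 and Myb lower, with a median of 0.95 over the genes at FPKM 1. Cd79b, a B-cell receptor signalling chain, had 22.4 FPKM in CLP Sca1 high, 3.14 FPKM in CLP and 16.3 FPKM in MPP4. The 4 lymphoid-priming genes called higher were Ccr9, Ikzf3, Il2rg and Bcl11a. Ikzf3 (Aiolos), an Ikaros relative of later lymphocytes, had 25.2 FPKM in CLP Sca1 high and was listed at 0 in the other 2. Bcl11a, which lymphoid and plasmacytoid development needs, had 119 FPKM in CLP Sca1 high, 8.03 FPKM in CLP and 20.4 FPKM in MPP4. Il2rg, the receptor chain shared by interleukins 2 and 7, had 173 FPKM in CLP Sca1 high, 25.9 FPKM in CLP and 79.7 FPKM in MPP4.

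Transcription factors were called in both directions between the CLP gates. Of 25 lineage factors at FPKM 10, 8 were called higher in CLP Sca1 high (Ikzf3, Gata3, Tcf4, Tcf12, Bcl11a, Id2, Ets1 and Bach1) and 11 lower (Ikzf1, Runx1, Runx2, Ebf1, Myb, Etv6, Mef2c, Mef2a, Nfil3, Satb1 and Meis1). Over all genes in this comparison 24% were called higher and 40.9% lower, so the factors divided much as all genes did. The call of Mef2a ended under both other scalings. Runx1, a founding factor of blood formation, had 1.2 FPKM in CLP Sca1 high, 203 FPKM in CLP and 59.4 FPKM in MPP4. Ets1, a factor of lymphocytes, was ordered the other way, with 90.0 FPKM in CLP Sca1 high, 1.06 FPKM in CLP and 24.0 FPKM in MPP4.

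Genes of the dividing cell were low in CLP Sca1 high. All 6 G2/M genes at FPKM 10 in either CLP gate were called lower. Of 15 at FPKM 1 the difference was negative in 15, with a median of -2.61 against -0.70 over all genes. The highest G2/M gene in CLP Sca1 high, Ube2c, had 4.18 FPKM, and only 2 of 22 reached FPKM 1 there. The genes at FPKM 10, and most at FPKM 1, thus passed the minimum through CLP alone. Their direction was fixed in advance. Plk1, a mitotic kinase, had 1.33 FPKM in CLP Sca1 high, 188 FPKM in CLP and 120 FPKM in MPP4. Kif20a, a kinesin of cell division, had 0.648 FPKM in CLP Sca1 high, 132 FPKM in CLP and 25.3 FPKM in MPP4. Top2a, the topoisomerase of dividing cells, had 0.904 FPKM in CLP Sca1 high, 39.8 FPKM in CLP and 15.4 FPKM in MPP4. CLP was the highest of the 3 libraries for each of these genes. The summed G2/M level was 9.3 FPKM in CLP Sca1 high, 589 FPKM in CLP and 335 FPKM in MPP4, the first being the lowest of the 18 libraries. Of 7 S-phase genes at FPKM 10, 5 were called lower and 0 higher, against 40.9% and 24% over all genes. Mcm7, part of the replicative helicase, had 0.571 FPKM in CLP Sca1 high, 170 FPKM in CLP and 110 FPKM in MPP4. The S-phase sum of CLP Sca1 high, 129 FPKM, was again the lowest of 18, against 703 FPKM in CLP and 823 FPKM in MPP4. Cdk6 and Myc, which drive proliferation, were ordered the same way. Cdk6 had 2.52 FPKM in CLP Sca1 high, 778 FPKM in CLP and 314 FPKM in MPP4, and Myc had 16.1 FPKM in CLP Sca1 high, 388 FPKM in CLP and 132 FPKM in MPP4. CLP Sca1 high also had the lowest summed level of 13 housekeeping genes, with 447 FPKM, against 677 FPKM in CLP and 766 FPKM in MPP4. The total FPKM of the table was also lowest of 18 in CLP Sca1 high, at 112384, against 143786 in CLP and 181239 in MPP4. As a share of that total, CLP Sca1 high remained lowest of 18 for G2/M (0.00824%, against 0.410% in CLP and 0.185% in MPP4) but ranked 17 for S phase (0.115%, against 0.489% in CLP and 0.454% in MPP4) and 16 for the housekeeping genes. The median housekeeping difference to MPP4, -0.51, became 0.09 with equal totals and -0.05 with the median ratio.

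**Figure D4:**
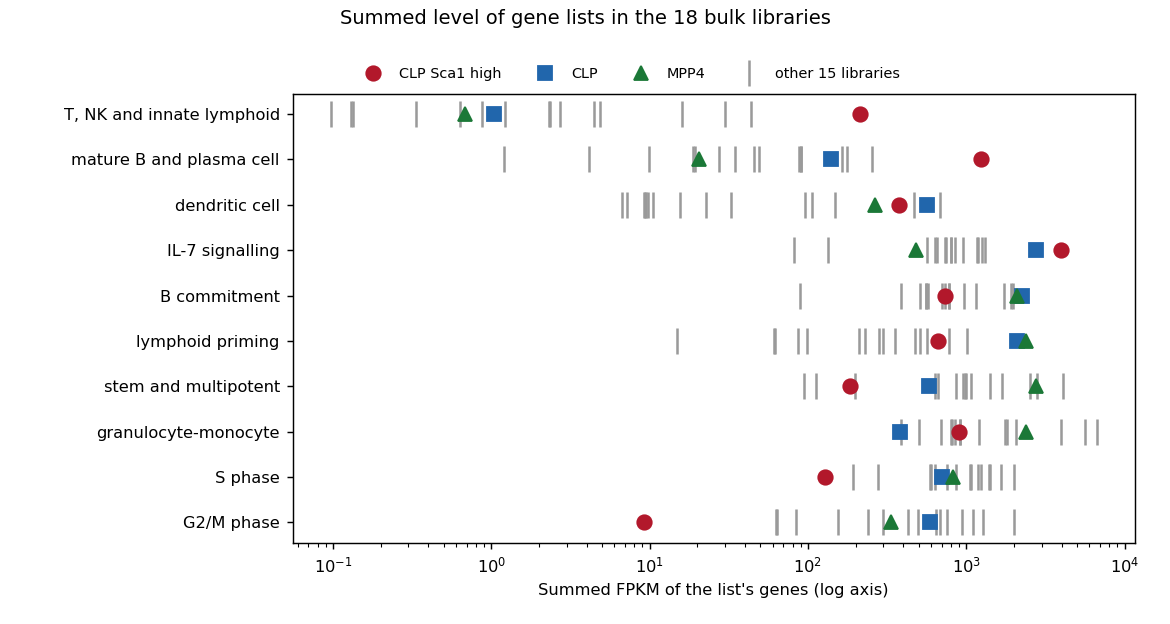
Summed FPKM (log axis) of 10 gene lists in CLP Sca1 high (circles), CLP (squares), MPP4 (triangles) and the other 15 libraries (grey ticks). CLP Sca1 high lies right of every other library for the T, natural killer and innate lymphoid list (215 FPKM) and the mature B and plasma cell list (1243 FPKM) and left of every other for S phase and G2/M; a sum follows its highest members, such as Mcl1 for interleukin 7 signalling and Myb for B commitment in MPP4.

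In all, 2824 genes reached FPKM 10 in any of the 3 libraries. Relative to both other gates, CLP Sca1 high had 377 of them higher (13.3%) and 293 lower (10.4%). Of the 377, all picked for a high level in this library, 216 were at their highest of the 18 libraries there. These comparisons share the CLP Sca1 high library, so the counts describe that library. The genes higher than in both included the sialyltransferase St8sia6, with 1062 FPKM in CLP Sca1 high, 0.0458 FPKM in CLP and 1.11 FPKM in MPP4, and the interferon-regulated nuclear protein Sp140, with 794 FPKM in CLP Sca1 high, 6.47 FPKM in CLP and 2.49 FPKM in MPP4. Pparg, Bmp6 and Gimap3 belonged to the same set. Pparg, the nuclear receptor of fat cells and tissue macrophages, had 183 FPKM in CLP Sca1 high, was listed at 0 in CLP and had 0.0254 FPKM in MPP4. Bmp6, a secreted growth factor, had 252 FPKM in CLP Sca1 high and 0.0468 FPKM in CLP and was listed at 0 in MPP4, and Gimap3, a GTPase of lymphocytes, had 130 FPKM in CLP Sca1 high, 0.0402 FPKM in CLP and 0.00505 FPKM in MPP4.

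The level in CLP Sca1 high was then read for the genes called between CLP and MPP4. Of the 732 genes higher in CLP than in MPP4, 102 lay within 2-fold of CLP in CLP Sca1 high and 351 within 2-fold of MPP4. Of the 696 genes lower in CLP, 339 lay within 2-fold of CLP and 81 within 2-fold of MPP4. A gene low in CLP Sca1 high counts as near MPP4 among the 732 and as near CLP among the 696. Both sets were picked for a high level in CLP or in MPP4, so these counts do not place CLP Sca1 high between them. Of the 2824 genes, both CLP gates were higher than MPP4 at 153 (5.4%), Ly6d, Mcl1, Stat5b and Sdc1 among them, and lower at 533 (18.9%). CLP alone was higher than both others at 518 genes (18.3%), 241 of them at their highest of 18 in CLP. All of these counts share libraries, and the lower overall level in CLP Sca1 high moves with them.

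**Figure D5:**
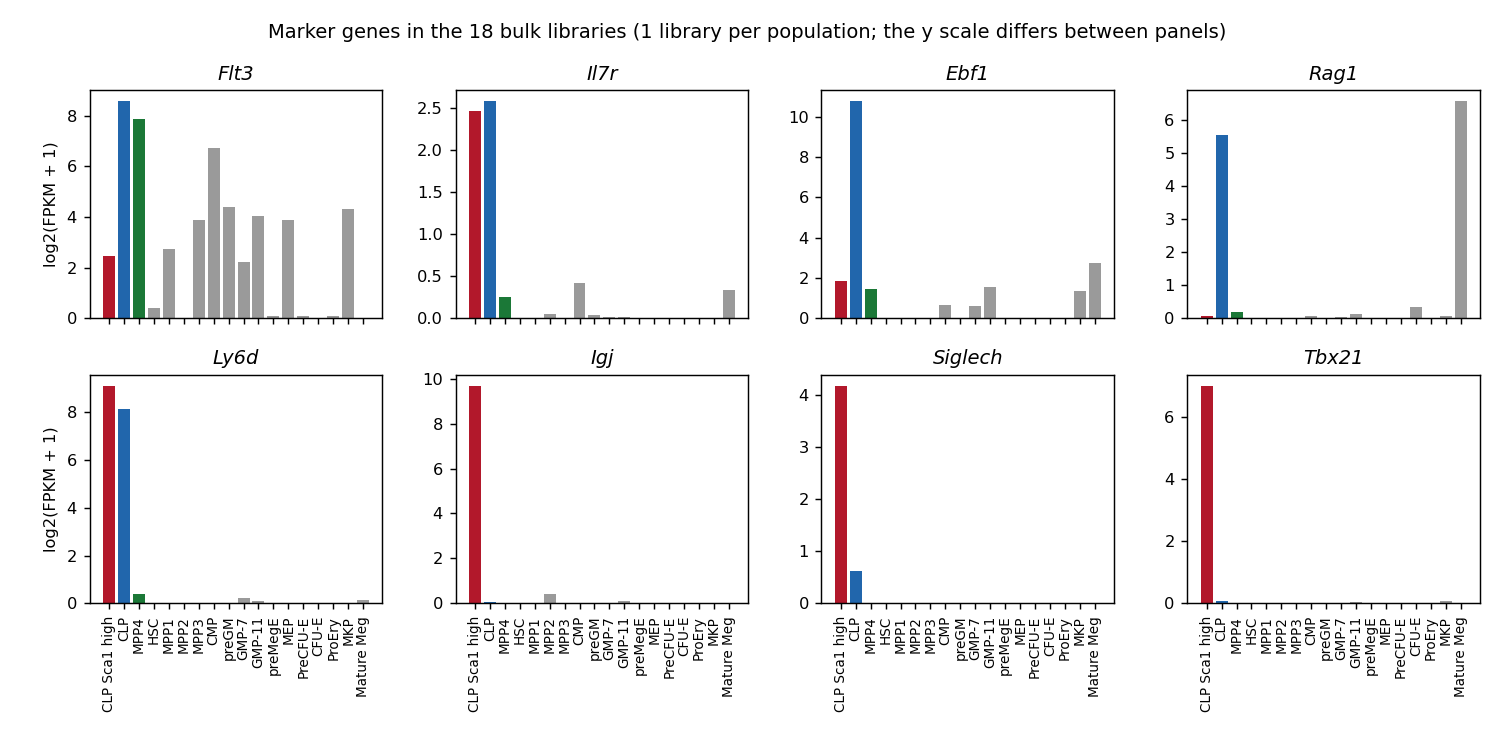
Bars of log2(FPKM + 1) for 8 marker genes in the 18 bulk libraries (1 library each), with CLP Sca1 high in red, CLP in blue, MPP4 in green and the other 15 in grey; y scales differ. Ly6d and Il7r mark both CLP gates, Ebf1 marks CLP, Igj, Siglech and Tbx21 mark CLP Sca1 high, and Rag1 is higher in the mature megakaryocyte library (93.0 FPKM) than in CLP (45.5 FPKM).

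The remaining populations put these genes in context. Ebf1 reached at most 5.66 FPKM in the other 15 libraries, and Dntt at most 0.668 FPKM. Rag1, however, had 93.0 FPKM in the mature megakaryocyte library, which held the fewest genes at FPKM 1 of the 18. The genes whose ranks over the 18 libraries were most like those of Ebf1 were Slc35d3, Gfra1, Sema4a, Sdc4 and Klf2, with Spearman rho from 0.85 to 0.89. Ebf1 was listed at 0 in 8 libraries and these genes in 4 to 11, so many of the ranks are tied. Of the 5, Slc35d3 and Gfra1 were high in CLP, at 94.2 and 47.0 FPKM, whereas Sema4a, Sdc4 and Klf2 were higher in CLP Sca1 high, at 8.85, 69.5 and 13.8 FPKM.

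Markers of other blood and marrow cells were mostly at or near 0. Of 11 neutrophil genes, 1 reached FPKM 1 in CLP Sca1 high, 0 in CLP and 0 in MPP4, and S100a8, Ltf and Lcn2 were listed at 0 in all 3. The exception was Mmp9, at 12.3 FPKM in CLP Sca1 high. Macrophage genes summed to 6.9 FPKM in CLP Sca1 high, 21.3 FPKM in CLP and 1.0 FPKM in MPP4, with C1qb listed at 0 in all 3. Of 11 megakaryocyte genes, Plek and F2r were at FPKM 1 in CLP Sca1 high, and Ppbp, Gp9 and Gp1ba were listed at 0 in all 3. F2r, a thrombin receptor, had 104 FPKM in CLP Sca1 high, 0.120 FPKM in CLP and 5.02 FPKM in MPP4. Plek had 77.7 FPKM in CLP Sca1 high, 9.95 FPKM in CLP and 51.4 FPKM in MPP4. Through these genes the summed megakaryocyte list of CLP Sca1 high, 182 FPKM, ranked 3 of the 18 libraries. Of 13 erythroid genes only Car2 reached FPKM 1, in each of the 3 libraries, with Epor listed at 0. Mast cell and basophil genes summed to 12.5 FPKM in CLP Sca1 high, 0.2 FPKM in CLP and 9.7 FPKM in MPP4, and stroma and endothelium genes to at most 3.7 FPKM. The part of mature dendritic, plasma, T or natural killer cells in the CLP Sca1 high library was not tested.

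A few transcripts differed for which no lineage role is known. Lars2, a mitochondrial tRNA synthetase gene, had 4736 FPKM in CLP Sca1 high and 5175 FPKM in CLP and was listed at 0 in MPP4 alone of the 18 libraries. Among small nucleolar RNAs, Snora62 had 9359 FPKM and Snora64 1043 FPKM in MPP4, both being listed at 0 in the CLP gates, and Snord15a had 321 FPKM in CLP Sca1 high and was listed at 0 in the other 2. At the limit of the call, Nfya was just inside for CLP over MPP4, with 202 FPKM in CLP and 49.8 FPKM in MPP4, and Bzw2 just outside, with 33.2 FPKM in CLP and 7.54 FPKM in MPP4. For CLP Sca1 high over CLP the nearest gene inside was Cd74, given above, and Parp9 was just outside, with 56.1 FPKM in CLP Sca1 high and 13.3 FPKM in CLP.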

How the data were processed

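The bulk libraries were made from 1000 sorted cells by an mRNA amplification protocol (Pan et al.) and TruSeq library kits, per the labels' protocols. The authors deposited FPKM values, 1 per gene and library, for 18855 genes; per the submitters' processing notes the tools were TopHat 1.3.3 and Cufflinks 1.2.1 with build mm9. The single-cell tables were not used here. From the deposited FPKM, log2 ratios of FPKM + 1 were computed with Python 3.11.15, pandas 2.3.3 and numpy 2.4.6, and genes were called at 4-fold or more with FPKM 10 or more in the higher library. The code of the calling was run on copied MPP4 values with set changes and no noise. Such a run cannot show how often single libraries give false calls. No p-value, SE or SD was computed, because each population has 1 library; the deviation between replicates is unknown.

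FPKM is relative to its own library, so a few abundant transcripts can shift all others. Relative depth came from the spacing of low FPKM values multiplied by transcript length (18333 genes matched), an estimate that rests on transcript lengths of a later build; fragments amplified from few cells are not independent molecules. Values listed at 0 can be failed estimates, and no fold is given against them.

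The comparisons, the 30 gene lists and the call rule were chosen with earlier results of these data known. Named genes are the 15 per direction with the largest log2 ratio in each comparison, all called list members, the 3 genes of each list that vary most over the 3 libraries, the sort markers, the marker genes of the path (Flt3, Il7r, Ebf1 and Rag1) and the genes nearest the threshold. Genes named outside this rule (Foxo1, Irf8, Bst2, Blnk, Cd79a, Cd3e, Ctsb, Rfx5, Vpreb2, Vpreb3, Prdm1, Ms4a1 and markers given as listed at 0) were chosen after their values were seen. Symbols of 18326 genes were matched by accession to RefSeq GRCm38.p6, whose promoter sequences are credited to RefSeq. Figures were drawn with matplotlib 3.10.9. Alternatives tried were other pseudocounts, FPKM minimums, fold thresholds and scalings of the libraries. Not every gene that meets the naming rule is reported here.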

Additional observations from a re-analysis of the deposited data

How the results depend on the processing

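Under 9 alternatives, no called named gene changed sign, but this outcome was fixed in advance. Other pseudocounts, minimums, thresholds and the filter on both libraries keep the sign of a difference. The scalings moved the libraries against each other by less than the 4-fold of a call. The balance of higher and lower calls did turn: for CLP Sca1 high against MPP4 with equal totals, for CLP against MPP4 at a minimum of FPKM 20 (489 higher, 505 lower) and among genes at FPKM 1 in both libraries, and in that setting also for the genes apart from both. The median ratio left every count within 1.5 times, with 699 and 625 for CLP against MPP4, 674 and 763 for CLP Sca1 high against CLP, and 751 and 782 for CLP Sca1 high against MPP4. With each library rescaled to a total of 1000000, CLP against MPP4 had 1712 genes higher and 1210 lower, CLP Sca1 high against CLP 1370 higher and 1787 lower, CLP Sca1 high against MPP4 1666 higher and 1580 lower, and 995 genes were higher and 655 lower in CLP Sca1 high than in both; rescaling also lifts more genes over FPKM 10. Among genes at FPKM 1 or more in both libraries, a setting chosen after seeing the data, the counts were 367 and 414, 271 and 456, and 254 and 464 in the same order, with 99 higher and 181 lower than in both. A pseudocount of 5 left 480 genes higher in CLP than in MPP4, 337 higher in CLP Sca1 high than in CLP, and 240 higher and 169 lower than in both. An 8-fold threshold left 249 and 186 apart from both. A minimum of FPKM 1 gave 901 genes higher in CLP Sca1 high than in MPP4 and 481 lower than in both, and a minimum of FPKM 20 gave 351 higher in CLP Sca1 high than in CLP, 375 higher than in MPP4 and 187 lower than in both. Of 398 calls of named genes, 20 ended with equal totals, 19 with the median ratio, 59 with the pseudocount of 5, 73 at 8-fold, 56 at FPKM 20 and 193 among genes at FPKM 1 in both libraries. Summing repeated gene symbols was not run, as no symbol is repeated. No paired analysis was possible because each bulk population has 1 library. At FPKM 10 a transcript of 1000 bases rested on about 194 fragments in CLP Sca1 high, 263 in CLP and 475 in MPP4. Fragments amplified from few cells are not independent molecules, so these numbers do not bound the sampling error. The spread between replicates is unknown.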
